A study of Homo sapiens with 36 samples.

Results

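The genes described here are 10 regulators of entry into the cell cycle, the D-type cyclins CCND1, CCND2 and CCND3, their kinases CDK4 and CDK6, the E-type cyclins CCNE1 and CCNE2, and the inhibitors CDKN1B, CDKN2A and CDKN2C. They were taken by symbol from a table of 37549 gene symbols counted by RNA sequencing in 36 libraries, and all 10 were present. The libraries came from the human B lymphoblastoid leukaemic lines MEC1, JVM2 and EHEB, used as models of chronic lymphocytic leukaemia. MEC1 carries mutated p53, and JVM2 and EHEB wild-type p53. Each line was exposed to DMSO (the vehicle), 50 µM fludarabine, 5 µM ibrutinib or 10 µM idelalisib, with 3 libraries per line and treatment. Exposure lasted 48 h in MEC1, 72 h for JVM2, and for EHEB 96 h. Fludarabine is a purine analogue that blocks DNA synthesis, ibrutinib inhibits Bruton's tyrosine kinase and idelalisib inhibits the delta form of phosphoinositide 3-kinase. Each library is named by its line and the number in its label. The effect of the line and that of its exposure time cannot be told apart. DMSO and fludarabine libraries lie in one series of label numbers and both kinase inhibitors in another, so a difference between these series cannot be told apart from the effect of ibrutinib or idelalisib over DMSO. Nothing in the labels says that the 3 libraries of a group came from separate cultures, so p-values measure only the spread between these libraries. Bulk RNA cannot tell fewer cells in a phase of the cycle from less RNA per cell.

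D-type cyclins are made in response to mitogens, in B cells also through the B-cell receptor, and activate CDK4 and CDK6, which phosphorylate the retinoblastoma protein. Its phosphorylation releases E2F factors, which drive CCNE1, CCNE2 and the genes of DNA replication, and E-type cyclins then activate CDK2. The protein p27, product of CDKN1B, inhibits cyclin E with CDK2 and also binds D-type complexes, whereas the INK4 proteins p16 (from CDKN2A) and p18 (from CDKN2C) bind CDK4 and CDK6 directly. JVM2 carries the translocation that joins CCND1 to the immunoglobulin heavy chain locus, as in mantle cell lymphoma.

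Libraries held between 26590705 and 53538925 counts (median 42114145). The lowest count of any of the 10 genes in any library was 32, and all 10 passed the filter on low counts in every line. Levels are given as CPM, the count scaled by library size, with factors over all 36 libraries from TMM, which corrects for differences in RNA composition. The B cell markers MS4A1, CD79A, CD79B, CD22 and PAX5 were present in every line, with line means over 12 libraries from 32.2 CPM (CD79B in EHEB) to 522 CPM (PAX5 in JVM2). T cell, myeloid, and epithelial and stromal marker lists each summed to at most 38.1 CPM in a library. CD3D, CD14, MPO and COL3A1 were below 1 CPM in each line, but other members of these lists were not. In JVM2 the line means were 11.2 CPM for COL1A1 and 8.35 CPM for CD33, and KRT8 was above both. In EHEB CD2 was at 5.61 CPM. Strand was not given for the counts, so reads of overlapping genes on opposite strands cannot be told apart: CCND1 overlaps LTO1, CCND2 overlaps CCND2-AS1, CDK4 overlaps TSPAN31, CDKN1B overlaps GPR19 and CDKN2A overlaps CDKN2B-AS1, while CCNE2 overlaps INTS8 and NDUFAF6. Counts of CDKN2A do not separate p16 from ARF, the other protein of this gene.

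The sequences before the start sites of 3 genes are shown because CDKN1B was the gene called different from DMSO (edgeR quasi-likelihood test, adjusted p under 0.05) in every line with every drug, and because CDK4 and CDKN2C both fell with fludarabine and with idelalisib in JVM2. Each is the 250 bases before the gene's start in RefSeq on GRCh38.p14, 5′ to 3′ on the gene's strand. Capitals mark CCAAT boxes (CCAAT or its reverse complement ATTGG), GC boxes (GGGCGG or its reverse complement CCGCCC) and E-boxes (CACGTG, the site of MYC and related factors). CDKN1B lies at chr12:12717118-12717367 (plus strand), CDKN2C at chr1:50960495-50960744 (plus strand) and CDK4 at chr12:57752311-57752560 (minus strand).
CDKN1B: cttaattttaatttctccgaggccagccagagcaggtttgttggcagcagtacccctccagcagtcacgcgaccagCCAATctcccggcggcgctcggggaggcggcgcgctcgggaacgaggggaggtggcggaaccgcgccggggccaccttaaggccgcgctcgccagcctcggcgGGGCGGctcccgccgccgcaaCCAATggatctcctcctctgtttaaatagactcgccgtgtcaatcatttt
CDKN2C: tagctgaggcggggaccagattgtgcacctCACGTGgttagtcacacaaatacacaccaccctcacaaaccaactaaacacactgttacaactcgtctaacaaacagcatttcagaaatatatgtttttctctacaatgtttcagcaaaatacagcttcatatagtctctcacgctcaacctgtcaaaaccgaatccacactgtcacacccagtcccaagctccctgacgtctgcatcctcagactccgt
CDK4: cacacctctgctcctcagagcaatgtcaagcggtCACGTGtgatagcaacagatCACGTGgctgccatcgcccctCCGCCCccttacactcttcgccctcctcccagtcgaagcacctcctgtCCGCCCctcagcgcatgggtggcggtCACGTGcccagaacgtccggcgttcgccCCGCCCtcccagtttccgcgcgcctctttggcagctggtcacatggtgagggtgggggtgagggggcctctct

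The RefSeq table held such a window for 7 of the 10 genes, and no entry was matched for CCND1, CCND2 and CCNE2. An E-box lay in 2 of the 7 windows, CDK4 with 3 copies and CDKN2C with 1, against 6.49% of 27305 windows of all genes. A GC box was found in 5 of the 7 (CCND3, CDK4, CDK6, CCNE1 and CDKN1B) against 42.3% of all windows, and a CCAAT box in 1 of the 7, CDKN1B, against 33.0%. Neither the FOXO letters GTAAACA nor the E2F letters TTTCGCGC, TTTGGCGC, TTTCCCGC or TTTGCCGC were in the 7 windows on either strand. They are in 2.98% and, for the 4 E2F words together, 2.79% of all windows. Matches are letters in these windows only.

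With DMSO the 3 lines differed widely in which D-type cyclin they expressed. CCND1 (chr11:69641156-69654474) was at 28.6, 27.9 and 32.9 CPM in the MEC1 libraries MEC1_37, MEC1_38 and MEC1_39. It was at 1012, 962 and 981 CPM in JVM2_85, JVM2_86 and JVM2_87, and at 136, 130 and 128 CPM in EHEB_133, EHEB_134 and EHEB_135. JVM2 was highest and MEC1 lowest, with no overlap between lines. The log2 difference was −5.06 ± 0.08 (SE, n = 3 against 3) for MEC1 against JVM2 (edgeR adjusted p = 5.38e-10), −2.17 ± 0.07 for MEC1 against EHEB (edgeR adjusted p = 1.32e-08) and 2.89 ± 0.07 for JVM2 against EHEB (edgeR adjusted p = 7.84e-09).

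CCND2 (chr12:4269771-4305353), the cyclin D that B-cell receptor signals induce in normal B cells, was at 17.2, 18.7 and 16.2 CPM in MEC1 and at 902, 869 and 826 CPM in JVM2. In EHEB it reached 4347, 4031 and 3708 CPM. EHEB was highest and MEC1 lowest, again without overlap, and the log2 difference of MEC1 from EHEB, −7.89 ± 0.10 (edgeR adjusted p = 4.55e-10), was the widest between lines of any of the 10 genes. The log2 difference of JVM2 from EHEB was −2.23 ± 0.07 (edgeR adjusted p = 4.61e-08). CCND3 (chr6:41934934-42050357), the cyclin D of germinal centre B cells, spread widely within the DMSO groups of MEC1 and JVM2. Its DMSO values were 27.7, 23.8 and 50.4 CPM in MEC1, 29.1, 21.1 and 14.0 CPM in JVM2, and 35.2, 40.4 and 31.8 CPM in EHEB, and no pair of lines was called (smallest edgeR adjusted p = 0.0697, JVM2 against EHEB). That pair was called without MEC1_39 (edgeR adjusted p = 0.0274) and without JVM2_85 (0.0301), and MEC1 against JVM2 without JVM2_85 (0.0414). JVM2 against EHEB was also called by DESeq2 (adjusted p = 0.0274), limma-voom (0.0444) and edgeR on those 6 libraries alone (0.0365).

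Per kilobase of exon, CCND1 and CCND3 made up 44.3% ± 4.6 and 40.0% ± 8.4 (SD, n = 3) of the summed D-type level in MEC1 with DMSO, and CCND2 15.7% ± 3.8. In JVM2 CCND1 made up 64.9% ± 1.0 and CCND2 34.0% ± 0.7, and in EHEB CCND2 made up 93.7% ± 0.3. These shares are descriptions, since an exact permutation test of 3 libraries against 3 cannot go below p = 0.1. The order within MEC1 depends on the gene length used: with the length of the canonical transcript in place of all exons, CCND3 came to 61.8% and CCND1 to 27.5% there. The summed D-type level was 14.3 ± 2.9 CPM per kilobase in MEC1, 319 ± 10.2 in JVM2 and 538 ± 41.2 in EHEB.

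E-type cyclins were highest in MEC1, where the D-type sum was lowest. CCNE1 (chr19:29811991-29824312) was at 27.8, 25.9 and 20.7 CPM in MEC1 with DMSO, 7.58, 6.72 and 8.85 CPM in JVM2, and 8.89, 9.46 and 10.1 CPM in EHEB. MEC1 stood above both other lines, by 1.67 ± 0.14 on the log2 scale over JVM2 (edgeR adjusted p = 8.13e-06) and 1.36 ± 0.14 over EHEB (edgeR adjusted p = 2.73e-05). JVM2 and EHEB were not called different (edgeR adjusted p = 0.0878), but were without JVM2_87 (edgeR adjusted p = 0.0432) and in a joint fit of 36 libraries (0.0238). CCNE2 was at 53.3, 56.2 and 56.0 CPM in MEC1, 1.81, 2.72 and 1.82 CPM in JVM2, and 6.05, 7.35 and 7.66 CPM in EHEB. The 3 lines were fully separated, with log2 differences of 4.69 ± 0.17 for MEC1 against JVM2 (edgeR adjusted p = 3.43e-08), 2.94 ± 0.15 for MEC1 against EHEB (edgeR adjusted p = 2.69e-07) and −1.74 ± 0.16 for JVM2 against EHEB (edgeR adjusted p = 1.83e-05).

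Summed per kilobase of exon, E-type cyclins came to 22.6 ± 1.3 CPM per kilobase in MEC1, above the D-type sum there, and to 3.62 ± 0.35 in JVM2 and 5.45 ± 0.43 in EHEB, far below it. CCNE1 made up 44.4% ± 4.3 of the E-type level in MEC1, 86.5% ± 4.3 in JVM2 and 70.8% ± 1.5 in EHEB.

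**Figure D1:**
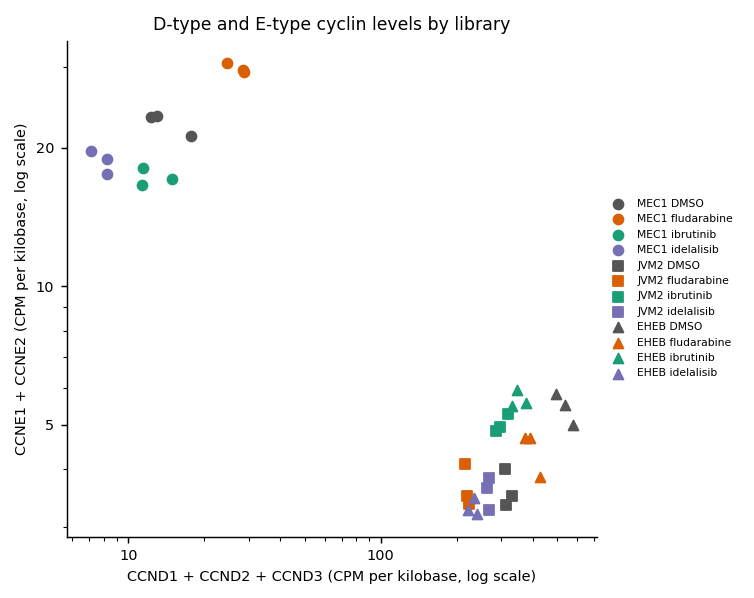
Summed CCND1, CCND2 and CCND3 level (x, CPM per kilobase of exon, log axis) against summed CCNE1 and CCNE2 level (y, same unit, log axis) in each library; shape marks the line and colour the treatment. MEC1 libraries sit at the upper left under every treatment (group means of the D-type sum 7.85 to 27.2), and JVM2 and EHEB libraries at the lower right (219 to 538).

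CDK4 (chr12:57747727-57756013) was at 143.5, 110 and 138 CPM in MEC1, 92.4, 95.7 and 92.9 CPM in JVM2, and 51.1, 51.2 and 49.1 CPM in EHEB with DMSO. MEC1 was highest and EHEB lowest: MEC1 exceeded JVM2 by 0.47 ± 0.09 on the log2 scale (edgeR adjusted p = 0.00186), and JVM2 exceeded EHEB by 0.88 ± 0.09 (edgeR adjusted p = 4.59e-05). CDK6 (chr7:92604921-92836573) followed another order. It was at 422, 448 and 402 CPM in MEC1, 159, 166 and 167 CPM in JVM2, and 703, 660 and 592 CPM in EHEB, and EHEB was highest. The log2 difference from EHEB was −0.65 ± 0.07 in MEC1 (edgeR adjusted p = 2.83e-05) and −2.01 ± 0.07 in JVM2 (edgeR adjusted p = 5.56e-08). CDK4 made up 54.8% ± 4.7 of the summed CDK4 and CDK6 level per kilobase in MEC1, 69.3% ± 0.5 in JVM2 and 23.5% ± 1.2 in EHEB.

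Among the inhibitors, CDKN1B (chr12:12685498-12722369) was highest in JVM2, at 167, 181 and 183 CPM, followed by MEC1 at 80.0, 84.4 and 82.6 CPM and EHEB at 62.4, 59.4 and 58.8 CPM. All 3 pairs of lines differed, MEC1 against JVM2 by −1.12 ± 0.05 (edgeR adjusted p = 1.72e-07), MEC1 against EHEB by 0.42 ± 0.05 (edgeR adjusted p = 9.43e-05) and JVM2 against EHEB by 1.54 ± 0.05 (edgeR adjusted p = 5.53e-08) on the log2 scale. CDKN2C (chr1:50960745-50974634) had the reverse order of MEC1 and JVM2. It was at 129, 123 and 127 CPM in MEC1, 7.28, 6.30 and 6.21 CPM in JVM2, and 26.3, 24.9 and 25.5 CPM in EHEB. MEC1 exceeded JVM2 by 4.25 ± 0.08 (edgeR adjusted p = 1.29e-09) and EHEB by 2.27 ± 0.07 (edgeR adjusted p = 1.41e-08) on the log2 scale. CDKN2A (chr9:21967752-21995301) was low throughout, at 12.4, 10.95 and 11.7 CPM in MEC1, 10.4, 10.3 and 12.1 CPM in JVM2, and 4.66, 6.24 and 5.78 CPM in EHEB. MEC1 and JVM2 overlapped (edgeR adjusted p = 0.616), and EHEB was below both, by 1.04 ± 0.13 on the log2 scale from MEC1 (edgeR adjusted p = 0.000107) and 0.96 ± 0.13 from JVM2 (edgeR adjusted p = 0.000247).

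In all, 8 of the 10 genes differed between MEC1 and JVM2, where 63.8% of all genes tested did, 9 between MEC1 and EHEB against 67.4% of all genes, and 8 between JVM2 and EHEB against 59.6%. With shares this high among all genes, the counts alone do not set these genes apart.

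Against DMSO, between 2 and 8 of the 10 genes were called in a comparison, fewest with ibrutinib in EHEB and most with idelalisib in MEC1. Fludarabine in MEC1 gave 4 of 10 genes called higher and 3 lower, where 21.2% of all genes tested were called higher and 22.7% lower. Ibrutinib in MEC1 gave 1 higher (all genes 23.7%) and 6 lower (23.9%), and idelalisib in MEC1 gave 0 higher (27.6%) and 8 lower (27.4%). The 8 that fell with idelalisib in MEC1 were CCND1, CCND2, CCND3, CDK4, CDK6, CCNE1, CDKN1B and CDKN2C, and the median over the 10 genes was −0.62 on the log2 scale against 0.08 over all genes. In JVM2, fludarabine gave 1 higher (23.9%) and 5 lower (23.3%), ibrutinib 2 higher (14.5%) and 2 lower (15%), and idelalisib 1 higher (21.6%) and 5 lower (22.6%). EHEB had 1 higher (18.4%) and 5 lower (19.2%) with fludarabine, 0 higher (8.5%) and 2 lower (11.2%) with ibrutinib, and 1 higher (15.1%) and 4 lower (18.2%) with idelalisib. The counts with ibrutinib in EHEB and JVM2 were near the shares over all genes. So were the 3 lower with fludarabine in MEC1 and the 1 higher in EHEB with fludarabine or idelalisib. Where 0 genes were higher, none was at an unadjusted edgeR p under 0.05, and DESeq2 and limma-voom also called 0. The comparisons of a line share its 3 DMSO libraries. These genes were chosen with earlier results of these data known, so the counts are set beside the shares as a description only.

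**Figure D2:**
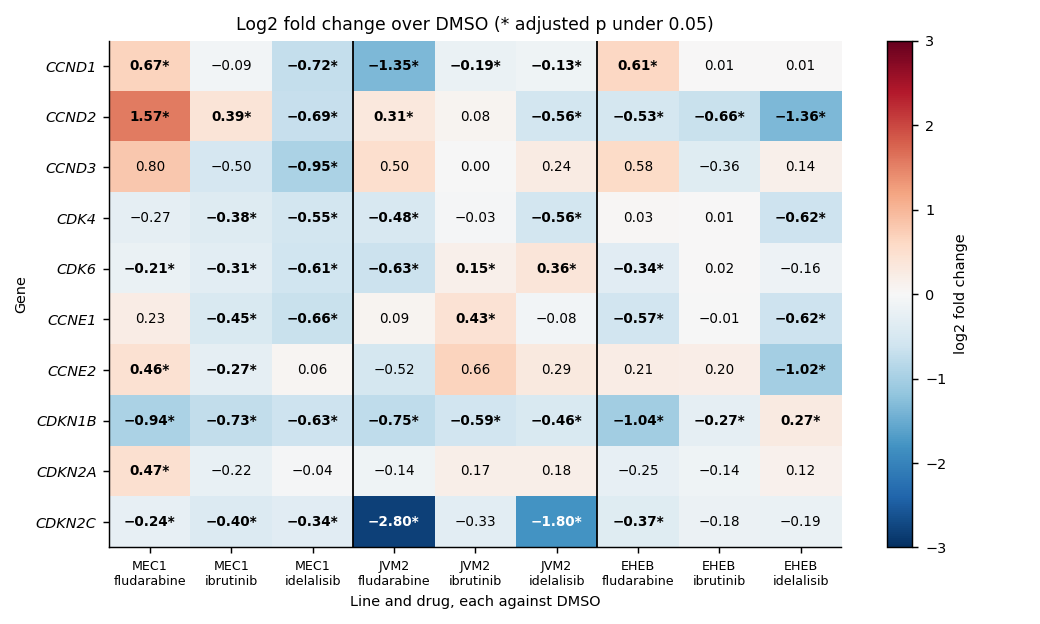
Log2 fold change over DMSO of the 10 genes (rows) with each drug in each line (columns), as fitted by edgeR in the 12 libraries of the line; colour gives the size and an asterisk marks an adjusted p under 0.05. CDKN1B carries an asterisk in all 9 columns, and the deepest values are those of CDKN2C in JVM2 (−2.80 with fludarabine, −1.80 with idelalisib).

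CCND1 moved in opposite directions with fludarabine. In MEC1 it rose from a DMSO mean of 29.8 CPM to 54.0, 47.05 and 44.5 CPM, a log2 fold change of 0.67 ± 0.14 (edgeR adjusted p = 0.0023). In EHEB it rose from 131 CPM to 208, 196 and 193 CPM (0.61 ± 0.07, edgeR adjusted p = 5.93e-05). In JVM2, where its level was highest, it fell from 985 CPM to 396, 385 and 372 CPM, by 1.35 ± 0.05 on the log2 scale (edgeR adjusted p = 5.61e-09). The treated libraries lay wholly above DMSO in MEC1 and EHEB and wholly below it in JVM2, and the fludarabine effect differed between lines (edgeR interaction, adjusted p = 6.59e-10).

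Among the kinase inhibitor groups, CCND1 changed most with idelalisib in MEC1. In MEC1 with idelalisib it was at 14.5, 18.8 and 18.7 CPM, below every DMSO library (−0.72 ± 0.14, edgeR adjusted p = 0.00106), and with ibrutinib at 32.5, 22.2 and 27.1 CPM, overlapping DMSO (−0.09 ± 0.14, edgeR adjusted p = 0.638). In JVM2 it was at 947, 814 and 846 CPM with ibrutinib (−0.19 ± 0.05, edgeR adjusted p = 0.0126) and at 886, 907 and 910 CPM with idelalisib (−0.13 ± 0.05, edgeR adjusted p = 0.0453). Both JVM2 calls were fragile. Ibrutinib's was lost without JVM2_233 or JVM2_234 (edgeR adjusted p 0.0717 to 0.0839), without TMM (0.0991), with only the 6 libraries (0.0629) and in the joint fit (0.236). That of idelalisib was lost without any of 9 of the line's 12 libraries (JVM2_85, JVM2_87, JVM2_94, JVM2_95, JVM2_96, JVM2_234, JVM2_238, JVM2_239 and JVM2_240; edgeR adjusted p 0.0546 to 0.14), without TMM (0.613), without the filter (0.0687) and in the joint fit (0.364). In EHEB both log2 values were 0.01, with 120 to 143.8 CPM over the 6 libraries. The idelalisib effect on CCND1 differed between lines (edgeR interaction, adjusted p = 0.000171), and that of ibrutinib was not called different (0.602).

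CCND2 was called in 8 of the 9 comparisons with DMSO, in both directions. Fludarabine raised it in MEC1 to 51.9, 53.8 and 51.8 CPM (1.57 ± 0.11, edgeR adjusted p = 1.28e-06), the largest rise of any of the 10 genes with any drug. In JVM2 it rose to 1088, 1052 and 1055 CPM (0.31 ± 0.04, edgeR adjusted p = 6.57e-05), and in EHEB it fell to 2969, 2716 and 2624 CPM (−0.53 ± 0.07, edgeR adjusted p = 0.000142). None of these groups overlapped DMSO, and the fludarabine effect differed between lines (edgeR interaction, adjusted p = 4.6e-10).

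With idelalisib CCND2 fell in all 3 lines. It was at 8.31, 11.8 and 10.7 CPM in MEC1 (−0.69 ± 0.11, edgeR adjusted p = 0.000304), 589, 594 and 587 CPM in JVM2 (−0.56 ± 0.04, edgeR adjusted p = 1.17e-06) and 1640, 1583 and 1523 CPM in EHEB (−1.36 ± 0.07, edgeR adjusted p = 2.35e-07). Every treated library was below every DMSO library of its line, and the size of the effect differed between lines (edgeR interaction, adjusted p = 0.00026). Ibrutinib gave a mixed picture. CCND2 was at 23.9, 20.5 and 21.9 CPM in MEC1, a rise of 0.39 ± 0.11 (edgeR adjusted p = 0.0126), which was lost without MEC1_39 or MEC1_184 (edgeR adjusted p 0.0504 to 0.0574). It was at 945, 890 and 926 CPM in JVM2, overlapping DMSO (0.08 ± 0.04, edgeR adjusted p = 0.17, or 0.0347 without TMM), and at 2538, 2392 and 2732 CPM in EHEB (−0.66 ± 0.07, edgeR adjusted p = 0.000106).

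CCND3 was called once in 9 comparisons with DMSO. In MEC1 with idelalisib it was at 17.5, 16.1 and 17.0 CPM (−0.95 ± 0.31, edgeR adjusted p = 0.0213), all below the DMSO libraries. This call was lost without MEC1_39, the highest DMSO library, without MEC1_191 or without MEC1_192 (edgeR adjusted p 0.051 to 0.109), and by limma-voom (0.053). With fludarabine CCND3 ranged from 39.5 to 73.9 CPM in MEC1, 24.3 to 38.4 CPM in JVM2 and 33.3 to 80.3 CPM in EHEB, with log2 values of 0.80, 0.50 and 0.58 that did not pass the test (edgeR adjusted p = 0.052, 0.197 and 0.139). In MEC1 it passed without MEC1_39 (edgeR adjusted p = 0.00647), MEC1_46 (0.0189) or MEC1_186 (0.0463), and in EHEB without EHEB_144 (0.82, edgeR adjusted p = 0.0331). The EHEB value rested on EHEB_142, the library at 80.3 CPM, and came to 0.15 without it (edgeR adjusted p = 0.66). In MEC1 it also passed by DESeq2 (adjusted p = 0.0157), by limma-voom (0.0358), without TMM (0.0137) and in the joint fit (0.0419).

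The D-type mixture in JVM2 with fludarabine moved from mostly CCND1 to mostly CCND2, with CCND1 at 36.8% ± 0.4 and CCND2 at 60.8% ± 0.7 of the summed level per kilobase, and the sum fell to 219 ± 4.4 CPM per kilobase. In the same line with idelalisib, CCND1 was at 70.7% ± 0.2. The sum in EHEB fell to 232.9 ± 9.4 CPM per kilobase with idelalisib, of which CCND2 was 85.05% ± 0.5. In MEC1 the sum was 27.2 ± 2.2 CPM per kilobase with fludarabine and 7.85 ± 0.63 with idelalisib.

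Fludarabine raised CCNE2 in MEC1 and lowered CCNE1 in EHEB. The effect on CCNE1 differed between lines (edgeR interaction, adjusted p = 0.00125). That on CCNE2 was not called different (edgeR interaction, adjusted p = 0.128), except without JVM2_96 (0.000915). With fludarabine in MEC1, CCNE2 rose to 79.9, 77.6 and 75.8 CPM (0.46 ± 0.07, edgeR adjusted p = 0.000216, or 0.0981 in the joint fit), above every DMSO library. CCNE1 was at 30.3, 29.2 and 29.4 CPM there, also above every DMSO library, but did not pass the test (0.23 ± 0.10, edgeR adjusted p = 0.0795), except without MEC1_37 (0.0317) or without TMM (0.00262). In EHEB with fludarabine CCNE1 fell to 6.15, 6.61 and 6.18 CPM (−0.57 ± 0.09, edgeR adjusted p = 0.000623). CCNE2 ranged from 5.90 to 9.57 CPM there and overlapped DMSO (0.21 ± 0.16, edgeR adjusted p = 0.345), passing the test without EHEB_142 (0.0416).

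Kinase inhibitors lowered CCNE1 in MEC1, to 17.6, 16.5 and 18.7 CPM with ibrutinib (−0.45 ± 0.10, edgeR adjusted p = 0.00252) and 15.1, 14.97 and 14.9 CPM with idelalisib (−0.66 ± 0.10, edgeR adjusted p = 0.000136). All 6 values were below the lowest DMSO value. CCNE2 in MEC1 fell to 43.8, 43.3 and 45.9 CPM with ibrutinib (−0.27 ± 0.07, edgeR adjusted p = 0.00671, or 0.309 in the joint fit) but was at 59.2, 50.1 and 56.4 CPM with idelalisib, overlapping DMSO (0.06 ± 0.07, edgeR adjusted p = 0.439). In EHEB idelalisib lowered both, CCNE1 to 5.93, 6.57 and 6.08 CPM (−0.62 ± 0.09, edgeR adjusted p = 0.00046) and CCNE2 to 3.45, 3.51 and 3.48 CPM (−1.02 ± 0.17, edgeR adjusted p = 0.000822). Neither was called with ibrutinib in EHEB (CCNE1 −0.01 ± 0.09 and CCNE2 0.20 ± 0.16).

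In JVM2 the E-type levels were low. CCNE1 with ibrutinib was at 10.8, 10.4 and 10.2 CPM, above the DMSO libraries (0.43 ± 0.13, edgeR adjusted p = 0.0336). The call was lost without any of JVM2_85, JVM2_86, JVM2_232, JVM2_233 or JVM2_234 (edgeR adjusted p 0.0573 to 0.12), and without the filter on low counts (0.0553). CCNE2 with fludarabine was at 0.943, 0.979 and 2.48 CPM (−0.52 ± 0.42, edgeR adjusted p = 0.347), and it passed the test without JVM2_96, the highest library (−1.13, edgeR adjusted p = 0.0367). Its errors there were the widest of the 10 genes, at a DMSO mean of 2.12 CPM.

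CDK4 fell with idelalisib in all 3 lines, and the size of the fall was not called different between them (edgeR interaction, adjusted p = 0.875). It was at 79.9, 84.5 and 92.7 CPM in MEC1 (−0.55 ± 0.13, edgeR adjusted p = 0.00461), 63.6, 61.5 and 66.8 CPM in JVM2 (−0.56 ± 0.05, edgeR adjusted p = 1.39e-05) and 31.8, 32.7 and 34.9 CPM in EHEB (−0.62 ± 0.06, edgeR adjusted p = 1.17e-05). No treated library reached a DMSO library of its line. With ibrutinib CDK4 was at 94.1, 91.1 and 106 CPM in MEC1 (−0.38 ± 0.13, edgeR adjusted p = 0.033), a call lost without MEC1_37, MEC1_39, MEC1_184 or MEC1_185 (edgeR adjusted p 0.0863 to 0.113) and without TMM (0.0615). It was not called in JVM2 (−0.03 ± 0.05) or EHEB (0.01 ± 0.06). With fludarabine it fell in JVM2 to 70.9, 65.7 and 62.9 CPM (−0.48 ± 0.05, edgeR adjusted p = 2.79e-05). It was at 90.7, 110 and 130 CPM in MEC1, which overlapped DMSO (−0.27 ± 0.13, edgeR adjusted p = 0.121) and passed without MEC1_38 (0.0385) or MEC1_48 (0.0252) and in the joint fit (0.0433), and in EHEB it stayed at 50.7 to 51.8 CPM (0.03 ± 0.06).

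CDK6 fell with fludarabine in each line. It was at 107, 103 and 105.5 CPM in JVM2 (−0.63 ± 0.05, edgeR adjusted p = 9.08e-07), 522, 511 and 503 CPM in EHEB (−0.34 ± 0.06, edgeR adjusted p = 0.00103) and 370, 388 and 369 CPM in MEC1 (−0.21 ± 0.07, edgeR adjusted p = 0.0409). The MEC1 call was lost without any of MEC1_37, MEC1_38, MEC1_46, MEC1_47, MEC1_48 or MEC1_192 (edgeR adjusted p 0.0561 to 0.124) and without the filter (0.0568). Under scaling by library size without TMM the log2 value became 0.04 and was not called (edgeR adjusted p = 0.711). The fludarabine effect on CDK6 differed between lines (edgeR interaction, adjusted p = 0.00117).

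Kinase inhibitors moved CDK6 down in MEC1 and up in JVM2. In MEC1 it fell to 349, 313 and 332 CPM with ibrutinib (−0.31 ± 0.07, edgeR adjusted p = 0.00473) and to 236, 292 and 273 CPM with idelalisib (−0.61 ± 0.07, edgeR adjusted p = 3.33e-05). In JVM2 it rose to 219, 199 and 217 CPM with idelalisib (0.36 ± 0.05, edgeR adjusted p = 8.58e-05). With ibrutinib in JVM2 it was at 186.3, 178 and 184.25 CPM (0.15 ± 0.05, edgeR adjusted p = 0.0321), a call lost without JVM2_85, JVM2_86, JVM2_87, JVM2_232 or JVM2_234 (edgeR adjusted p 0.0528 to 0.101), without the filter (0.0794) and in the joint fit (0.0777). Neither drug passed the test in EHEB, where idelalisib gave 613, 580 and 572 CPM (−0.16 ± 0.06, edgeR adjusted p = 0.0689) and passed without EHEB_135 (0.0126). Effects on CDK6 differed between lines for both drugs (edgeR interaction, adjusted p = 0.00127 for ibrutinib and 5.82e-06 for idelalisib). With CDK4 down and CDK6 up, the CDK4 share in JVM2 with idelalisib was 54.5% ± 0.8. In EHEB with idelalisib, where CDK4 fell and CDK6 was not called, it was 18.2% ± 1.2.

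CDKN1B was called in all 9 comparisons with DMSO, lower in 8. With fludarabine it fell to 43.0, 44.9 and 43.7 CPM in MEC1 (−0.94 ± 0.05, edgeR adjusted p = 2.28e-07), 111, 107 and 95.2 CPM in JVM2 (−0.75 ± 0.06, edgeR adjusted p = 2.63e-06) and 28.6, 28.9 and 29.3 CPM in EHEB (−1.04 ± 0.05, edgeR adjusted p = 6.37e-08). Every treated library was below every DMSO library of its line. The difference of these effects between lines was called (edgeR interaction, adjusted p = 0.00927), but not without MEC1_46, MEC1_48, JVM2_85, JVM2_94 or EHEB_133 (0.0528 to 0.0813) or without the filter (0.0644).

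Ibrutinib lowered CDKN1B to 49.2, 45.8 and 49.5 CPM in MEC1 (−0.73 ± 0.05, edgeR adjusted p = 9.45e-07), 124, 120 and 113 CPM in JVM2 (−0.59 ± 0.06, edgeR adjusted p = 6.86e-05) and 50.7, 49.6 and 49.8 CPM in EHEB (−0.27 ± 0.05, edgeR adjusted p = 0.00288). Idelalisib lowered it to 51.9, 50.7 and 50.0 CPM in MEC1 (−0.63 ± 0.05, edgeR adjusted p = 1.46e-06) and 133.99, 128 and 125 CPM in JVM2 (−0.46 ± 0.06, edgeR adjusted p = 0.000136). In EHEB idelalisib raised it to 74.0, 74.2 and 70.9 CPM, above every DMSO library (0.27 ± 0.05, edgeR adjusted p = 0.00135). EHEB thus went the other way, and the idelalisib effect differed between lines (edgeR interaction, adjusted p = 6.97e-08).

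CDKN2C fell most in JVM2, from a DMSO mean of 6.60 CPM. With fludarabine it was at 0.897, 1.16 and 0.756 CPM (−2.80 ± 0.22, edgeR adjusted p = 1.75e-06) and with idelalisib at 2.54, 1.53 and 1.65 CPM (−1.80 ± 0.21, edgeR adjusted p = 4.77e-05). All 6 libraries were below DMSO. With ibrutinib it was at 5.52, 4.90 and 5.48 CPM, below DMSO in all 3 libraries but not called (−0.33 ± 0.20, edgeR adjusted p = 0.262). The effects differed between lines for fludarabine (edgeR interaction, adjusted p = 3.26e-08) and idelalisib (3.72e-06).

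In MEC1, where CDKN2C was highest, the changes were small. It fell to 111, 114 and 104 CPM with fludarabine (−0.24 ± 0.06, edgeR adjusted p = 0.00513), 96.7, 85.9 and 95.9 CPM with ibrutinib (−0.40 ± 0.06, edgeR adjusted p = 0.000146) and 94.05, 92.8 and 100.1 CPM with idelalisib (−0.34 ± 0.06, edgeR adjusted p = 0.000359). The fludarabine value became 0.01 without TMM (edgeR adjusted p = 0.88), and its call was also lost in the joint fit (edgeR adjusted p = 0.185). In EHEB it was called only with fludarabine, at 23.4, 17.7 and 17.6 CPM (−0.37 ± 0.11, edgeR adjusted p = 0.0242), and not without EHEB_133, EHEB_143 or EHEB_144 (edgeR adjusted p 0.0618 to 0.0872), without TMM (0.0546) or with only the 6 libraries (0.0554).

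CDKN2A passed the test once, with fludarabine in MEC1, at 16.2, 16.7 and 16.6 CPM against a DMSO mean of 11.7 CPM (0.47 ± 0.10, edgeR adjusted p = 0.00291). The 3 treated libraries were above every DMSO library. Its other log2 values against DMSO lay between −0.25 and 0.18, and the group of MEC1 with ibrutinib passed without MEC1_186 (−0.33, edgeR adjusted p = 0.0209), as did JVM2 with idelalisib without TMM (0.29, edgeR adjusted p = 0.0484). The fludarabine effect differed between lines (edgeR interaction, adjusted p = 0.00282).

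Differences of a drug's effect between the 3 lines were called for 7 of the 10 genes with fludarabine, 6 with ibrutinib and 8 with idelalisib, where 39.1%, 33.6% and 45.7% of all genes were called.

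Ibrutinib and idelalisib libraries belong to the same series of label numbers, so they were also compared directly, at 5 µM and 10 µM. In MEC1, 4 of the 10 genes differed (15.4% of all genes did), in JVM2 5 (18.7%) and in EHEB 5 (15.9%). CCND2 was the gene lower with idelalisib in every line, by 1.09 ± 0.11 in MEC1 (edgeR adjusted p = 0.000662), 0.64 ± 0.04 in JVM2 (edgeR adjusted p = 1.99e-06) and 0.70 ± 0.07 in EHEB (edgeR adjusted p = 8.71e-05) on the log2 scale. CDK4 was lower with idelalisib in JVM2 (−0.53 ± 0.05, edgeR adjusted p = 8.33e-05) and EHEB (−0.62 ± 0.06, edgeR adjusted p = 4.31e-05), while in MEC1 it was −0.16 ± 0.13 (edgeR adjusted p = 0.505).

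Other genes differed between these drugs in 1 or 2 of the 3 lines. In EHEB CCNE2 was lower with idelalisib by 1.22 ± 0.17 (edgeR adjusted p = 0.000667) and CDKN1B higher by 0.54 ± 0.05 (edgeR adjusted p = 3.91e-05) on the log2 scale. In JVM2 CDKN2C was lower by 1.47 ± 0.21 (edgeR adjusted p = 0.000731) and CDK6 higher by 0.21 ± 0.05 (edgeR adjusted p = 0.00823). CCNE1 was lower with idelalisib in EHEB (−0.61 ± 0.09, edgeR adjusted p = 0.00132) and in JVM2 (−0.50 ± 0.13, edgeR adjusted p = 0.0237), the latter not without JVM2_232, JVM2_233 or JVM2_239 (0.0564 to 0.0695). In MEC1 CCNE2 was higher (0.33 ± 0.07, edgeR adjusted p = 0.00799), CCND1 lower (−0.64 ± 0.14, edgeR adjusted p = 0.0115) and CDK6 lower (−0.29 ± 0.07, edgeR adjusted p = 0.0205). The CCND1 call was lost without MEC1_184 or MEC1_190 (edgeR adjusted p 0.0501 to 0.0506), and the CDK6 call without MEC1_184, MEC1_186 or MEC1_190 (0.051 to 0.0661). With only the 6 libraries neither was called (edgeR adjusted p = 0.0529 and 0.0854), nor was CDK6 without the filter (0.0701), nor CCNE2 without TMM (0.094) or in the joint fit (0.483). CDK6 in EHEB was not called (edgeR adjusted p = 0.0808), except without EHEB_135 (0.0387), and CCNE1 in MEC1 was called only without TMM (0.0177). For CDKN1B in MEC1 and JVM2 the values were 0.10 ± 0.05 and 0.12 ± 0.06, not called (in JVM2 called without TMM, edgeR adjusted p = 0.0469).

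Other genes of the pathway were taken from 6 lists. Over the 9 comparisons with DMSO, between 8.5% and 27.6% of all genes tested were called higher and between 11.2% and 27.4% lower. Among the other CDK inhibitors (5 genes), CDKN2B, which encodes p15, rose with fludarabine in all 3 lines, from 0.293 to 1.79 CPM in MEC1, 0.268 to 2.37 CPM in JVM2 and 1.73 to 19.6 CPM in EHEB (means of 3). Its log2 fold changes were 2.57, 3.13 and 3.52. CDKN2D, which encodes p19, was called lower in 6 of the 9 comparisons with DMSO and higher in none. CDKN3, a phosphatase of CDK2, was lower in 4 and higher in 2. CDKN1A was also higher in 2 and lower in 2. With fludarabine its mean went from 110 to 171 CPM in MEC1, 514 to 938 CPM in JVM2 and 671 to 1426 CPM in EHEB. The change was called in MEC1 and JVM2 but not in EHEB. The fludarabine libraries spread widely in JVM2 (400 to 1210 CPM) and EHEB (575 to 1861 CPM). In both lines the lowest of them lay below every DMSO library (lowest DMSO library 502 CPM in JVM2 and 652 CPM in EHEB). Of the 5 genes, at most 3 rose and at most 3 fell in a comparison.

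Of the partner kinases and later cyclins (11 genes), 9 fell with fludarabine in JVM2 (all genes 23.3%), 10 with idelalisib in JVM2 (22.6%) and 8 with idelalisib in EHEB (18.2%), and none rose in these 3 comparisons. With idelalisib in MEC1, 6 fell (27.4%) and 3 rose (27.6%). With ibrutinib in JVM2, 7 fell (15%) and 1 rose (14.5%). CCNA2, the cyclin of S phase, fell in all 9, most in JVM2 with fludarabine, from 97.2 to 5.12 CPM (−4.24 on the log2 scale). CDK1, the mitotic kinase, fell in 8, CCNB2, a mitotic cyclin, in 7 and CDC25C, the phosphatase that activates CDK1, in 6. In MEC1 the CCNA2 changes were smaller, between −0.58 and −0.39 on the log2 scale.

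Among 16 E2F-driven S-phase genes, all 16 fell with idelalisib in EHEB (all genes 18.2%), and 13 fell with idelalisib in MEC1 (27.4%), with idelalisib in JVM2 (22.6%), with ibrutinib in MEC1 (23.9%) and with fludarabine in JVM2 (23.3%). In JVM2, 2 rose with fludarabine (23.9%) and 2 with idelalisib (21.6%), and none rose in the other 3 of these comparisons. With ibrutinib in JVM2, where CCNE1 was higher, 7 rose (14.5%) and 2 fell (15%). With fludarabine in MEC1, where CCNE2 rose, 1 rose (21.2%) and 4 fell (22.7%). CDT1, the licensing factor of replication origins, fell in 8 of 9, between −2.48 and −0.40 on the log2 scale in those with an adjusted p under 0.05. The medians of this list were −1.14 with idelalisib in EHEB, −1.10 with idelalisib in MEC1 and 0.21 with ibrutinib in JVM2, against 0.01, 0.08 and 0.00 over all genes.

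In the RB and E2F family (13 genes), E2F2 was called in all 9 comparisons, lower in 7 and higher in MEC1 with fludarabine (0.35) and JVM2 with ibrutinib (0.64). E2F7, a repressor induced by p53, rose with fludarabine in JVM2 from 42.1 to 189.5 CPM (2.18 on the log2 scale) and in EHEB from 83.6 to 312 CPM (1.91), while in MEC1 it was 0.03. It fell with both kinase inhibitors in all 3 lines. Between 0 and 7 genes of this family rose in a comparison, where 8.5% to 27.6% of all genes did. Between 2 and 7 fell, where 11.2% to 27.4% of all genes did. The 2 that fell with fludarabine in MEC1 (all genes 22.7%) and the 2 with ibrutinib in JVM2 (15%) were near or below these shares.

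Among 10 genes for the turnover of cyclins and p27, FBXO31, a ubiquitin ligase subunit for cyclin D1, fell in all 9 comparisons (−1.001 to −0.15 on the log2 scale). CKS1B, the cofactor that delivers p27 to the SKP2 ligase, fell in 7, as did the kinase gene GSK3B. FBXW7, the cyclin E ligase, rose in 3 comparisons and fell in 2. Between 0 and 3 genes of this list rose in a comparison, where 8.5% to 27.6% of all genes did, so these rises were near or below the shares over all genes. Between 2 and 7 fell, where 11.2% to 27.4% of all genes did. Of the upstream factors, MYC was called in none of the 9 comparisons by edgeR (1 at an unadjusted p under 0.05, smallest adjusted p = 0.0625). With DMSO it ranged from 10.8 to 204 CPM in MEC1, 9.98 to 109 CPM in JVM2 and 26.1 to 39.2 CPM in EHEB. With such spread in MEC1 and JVM2, the lack of a call does not show that MYC was unchanged there. SOX11 was not tested for low counts. FOXO1, a forkhead factor that activates CDKN1B, was called lower in 6 of 9, in each of the 3 comparisons of MEC1 and of EHEB, and rose in JVM2 with fludarabine (0.25). KLF2, a factor of quiescent lymphocytes, rose in 5 of 9, most with idelalisib in JVM2 (from 1.05 to 5.03 CPM), and fell with fludarabine in EHEB (from 3.16 to 0.569 CPM). BCL6, a repressor of CCND2 and CDKN1B, rose with fludarabine from 11.8 to 18.7 CPM in MEC1, 0.456 to 12.3 CPM in JVM2 and 0.763 to 3.69 CPM in EHEB, and all 3 JVM2 libraries with ibrutinib held 0 counts of it, against 3 to 33 with DMSO.

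As a description with no test, the genes whose log2 CPM followed the 10 genes most closely over 36 libraries, after each line's mean was subtracted, were sought among 15181 genes. The highest Pearson r was that of PIK3R3 with CCND2 (0.94), TNIK with CDK6 (0.94), KLHL24 with CDKN1B (0.94) and BUB1 with CDKN2C (0.92). CDK4 was followed by DTL (0.89) and RAD54L (0.88), CCND1 by SHB (0.88), CCNE1 by SH3BP1 (0.87), CDKN2A by WWTR1 (0.82), CCNE2 by SKP2 (0.80) and CCND3 by F8A2 (0.80). Libraries share treatments and depth, so these r values are not independent evidence. Without subtracting line means, the highest r was 0.99 for CCND2 with AFAP1-AS1 and 0.98 for CCND1 with BIN1, which follow the order of the lines.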

How the data were processed

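The deposited values are expected counts per gene symbol, made by the authors with StringTie 1.3.4 after Trimmomatic and alignment to GRCh38 with HISAT2 2.1 from rRNA-depleted total RNA. The release of the Ensembl annotation and the strand setting were not given in the sources used here. An entry with a blank symbol (0.00384% of counts) was left out. Libraries were grouped by their labels, and totals ranged from 26590705 to 53538925 counts.

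The counts were fitted with edgeR 4.0.16 (R 4.3.3), with TMM, filterByExpr (minimum count 10, minimum total 15) and the quasi-likelihood F-test, with Benjamini-Hochberg adjustment over all genes tested; called means an adjusted p under 0.05. The 12 libraries of a line gave comparisons of treatments, the 9 DMSO libraries those of lines, and 18 libraries per drug the interaction of line and drug with both terms tested together. CPM were scaled jointly over 36 libraries. Levels per kilobase used the union of exons in GENCODE 44. Standard errors are those of the fitted log2 values.

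The named genes were the 10 genes, at most 4 per pathway list (called in at least 5 of 9 comparisons with DMSO, largest mean absolute change) and the 2 most correlated genes of each member by either measure. CDKN1A, MYC and SOX11 are outside this rule and were named after their values were seen. The members and lists were chosen with earlier results of these data known. Alternatives were library size scaling, no filter, limma-voom (limma 3.58.1), DESeq2 1.42.0, only the 6 libraries compared, a joint fit, canonical transcript length and each library left out. The fits were also run on simulated counts with equal numbers of genes raised and lowered, which does not test the scaling between libraries. Figures used Python 3.11.15 and matplotlib 3.10.9.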

Additional observations from a re-analysis of the deposited data

Results flagged for a closer look

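The following effects against DMSO differed between the 3 lines by the edgeR interaction test, adjusted over all genes. With fludarabine these were CCND1 (adjusted p = 6.59e-10; lower in JVM2, higher in MEC1 and EHEB), CCND2 (4.6e-10; lower in EHEB, higher in MEC1 and JVM2), CDKN2C (3.26e-08; −2.80 in JVM2 against −0.24 and −0.37 in MEC1 and EHEB), CDK6 (0.00117), CCNE1 (0.00125; −0.57 in EHEB), CDKN2A (0.00282; 0.47 in MEC1) and CDKN1B (0.00927). With ibrutinib they were CCND2 (5.26e-06; −0.66 in EHEB, 0.39 in MEC1), CDKN1B (0.00035), CDK6 (0.00127), CCNE1 (0.00166; −0.45 in MEC1, 0.43 in JVM2), CCNE2 (0.00563) and CDK4 (0.0223). With fludarabine CDK4 was not called different (0.0593), but was without MEC1_38, MEC1_46 or MEC1_48 (0.0119 to 0.0256), by DESeq2 (0.0196) and in the joint fit (0.00936), and CCNE2 (0.128) was without JVM2_96 (0.000915). For ibrutinib the CDK4 difference was lost without MEC1_37, MEC1_39 or MEC1_185 (edgeR adjusted p 0.051 to 0.0626) and the CCNE2 difference in the joint fit (0.0839).

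With idelalisib the effect differed for CDKN1B (edgeR adjusted p = 6.97e-08; 0.27 in EHEB, −0.63 and −0.46 in MEC1 and JVM2), CDKN2C (3.72e-06), CDK6 (5.82e-06; −0.61 in MEC1, 0.36 in JVM2), CCND1 (0.000171), CCND2 (0.00026), CCNE2 (0.00732; −1.02 in EHEB), CCNE1 (0.0213) and CCND3 (0.0383). The last was lost without any of 9 libraries (MEC1_39, MEC1_190, MEC1_191, MEC1_192, JVM2_86, JVM2_239, JVM2_240, EHEB_133 and EHEB_135; edgeR adjusted p 0.0565 to 0.145) and by limma-voom (0.0526), and CCNE1 without JVM2_85, JVM2_86, JVM2_238 or JVM2_240 (0.0548 to 0.0795). In none of these can the line be told apart from its exposure time.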

How the results depend on the processing

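Over 6 alternatives other than leaving a library out, 1007 values for the 10 genes kept their side of the threshold. Another 25 lost a call without a change of sign, 2 lost a call with the sign changed, and 16 gained a call. The 1007 include values called in neither fit whose sign changed, and interaction tests, which have no direction. Scaling by library size without TMM turned the sign of CDK6 and CDKN2C with fludarabine in MEC1, and neither was then called. The log2 values became 0.0434 (edgeR adjusted p = 0.711) for CDK6 and 0.0118 (edgeR adjusted p = 0.88) for CDKN2C. That scaling moves the median log2 change of all genes by 0.25 with fludarabine in MEC1, 0.20 in JVM2 and 0.11 in EHEB, by 0.10 with idelalisib in JVM2 and with ibrutinib in EHEB, by −0.17 for idelalisib against ibrutinib in MEC1, and by 0.14 and 0.12 for MEC1 against JVM2 and EHEB. Calls with fludarabine in MEC1 then split into 6052 higher and 2113 lower, against 3721 and 3973 with TMM.

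For ibrutinib against DMSO in JVM2, 4 genes were called, but 2 without the filter and 2 in the joint fit of 36 libraries, and 1 to 4 with a library left out (1 without JVM2_234, and 2 without JVM2_85, JVM2_86, JVM2_232 or JVM2_233). For idelalisib against ibrutinib in MEC1, 4 were called, but 2 with only the 6 libraries and 2 to 4 with a library left out (2 without MEC1_184 or MEC1_190). The cause was not tested.

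With canonical transcript length, DMSO shares in MEC1, JVM2 and EHEB were 27.5%, 61.8% and 4.64% for CCND1, 10.7%, 35.4% and 92.7% for CCND2, 61.8%, 2.78% and 2.64% for CCND3, and 65.6%, 78.1% and 32.7% for CDK4. CCNE1 came to 37.97% in MEC1 and 65.0% in EHEB. Counts of CCNE2 and CDKN2C in JVM2 are low, so their errors are wide.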
